A study of Mus musculus with 3 samples.

Results

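Serpins are protease inhibitors that change shape when a target protease attacks them and trap the enzyme. 6 serpin genes, *Serpina3g*, *Serpina3f*, *Serpinb6b*, *Serpinb6a*, *Serpinb9* and *Serpinb1a*, are described here in dendritic cells from mouse tumours. They are 6 of the 32285 genes in the count matrices, which hold 62 symbols that start with Serpin, 32 of them with at least 1 unique molecular identifier (UMI). The genes were chosen by measured values: their counts by library and cluster of type 1 conventional dendritic cells (cDC1s), and in barcodes outside the deposited cDC1 table that hold *Ccr7* or *Cxcl9*. A high level in such cells is therefore part of how the genes were picked, and the levels there describe the choice.

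The study sequenced single cells sorted from MCA205 tumours expressing LifeAct-linked ovalbumin on day 5 of growth in both flanks. The animals were wild type (WT), lacked secreted gelsolin (sGSN-/-), or lacked both secreted gelsolin and DNGR-1, the product of *Clec9a* (sGSN-/-Clec9a-/-). Tumours of 37 WT, 31 sGSN-/- and 27 sGSN-/-Clec9a-/- mice were pooled into a single library per genotype, and pre-cDCs, cDC1s and type 2 cells (cDC2s) were sorted as separate gates and then mixed, so their proportions were set by hand. No genotype has a replicate library, so a difference between genotypes has no estimate of its spread between pools, and males and females were mixed in different proportions (25 and 12, 15 and 16, 10 and 17). Where 3 values follow each other below, they belong to the WT, sGSN-/- and sGSN-/-Clec9a-/- libraries in that order, and levels are UMI counts scaled to CPM on the total of the summed cells of a library.

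Serpins of clade B lack a classical signal peptide and act mostly inside cells. *Serpinb9* inhibits granzyme B, *Serpinb6b* has been reported as a granzyme A inhibitor, and *Serpinb6a* and *Serpinb1a* are the mouse counterparts of human inhibitors of cathepsin G and neutrophil elastase. *Serpina3g* acts within cells on lysosomal cysteine proteases such as cathepsins, and *Serpina3f* is a close paralogue in the same gene cluster.

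The libraries held 12763, 8173 and 9273 barcodes, with medians of 13210, 11954 and 10649 UMIs, and the cDC1 table listed 2316, 1712 and 1778 of them in 12 clusters. Pairs of libraries had 26 (WT and sGSN-/-), 28 (WT and sGSN-/-Clec9a-/-) and 27 (both knock-outs) barcode sequences in common. *Clec9a* stood at 168, 168 and 0.0931 CPM in all cDC1s, so the library lacking DNGR-1 shows its genotype. *Gsn* stood at 152, 169 and 167 CPM; the knock-out removes only the secreted form, and gene counts cannot check it.

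The authors call clusters 7, 8, 9 and 10 activated. Among these, cluster 8 (84, 114 and 57 cells) has the *Ccr7* state and cluster 10 (21, 27 and 28 cells) the *Cxcl9* state, while cluster 7 holds 422 cells and cluster 9 holds 162. *Ccr7* reached 2412, 2424 and 1166 CPM in cluster 8, and *Cxcl9* 4745, 4982 and 4770 CPM in cluster 10. The summed cDC1 markers (*Xcr1*, *Cadm1*, *Tlr3*, *Gcsam*, *Snx22*, *Naaa*) were lower in cluster 8 (531, 460 and 774 CPM, led by *Naaa* at 269 CPM over all libraries) than in cluster 10 (1421, 1282 and 1349 CPM) or all cDC1s (1993, 1882 and 2129 CPM). Natural killer (NK) markers summed to 177, 268 and 171 CPM in cluster 8 and, in cluster 10, to 344, 377 and 221 CPM, led by *Klrk1* in both, against 176, 191 and 166 CPM in all cDC1s. Macrophage markers reached 160, 19.7 and 11.6 CPM in cluster 8, and T cell markers 5.81, 14.96 and 1.94 CPM. By Scrublet score, 3.92% of cluster 8 and 0% of cluster 10 were among the 6% most doublet-like barcodes of their library, and no cell was removed for it.

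The name of the group fits only a share of its counts. Of 8379 *Serpina3g* UMIs, 991 lay in the cDC1 table and 7373 in barcodes outside it that passed quality thresholds, and 4499 lay in NK barcodes, although the sort excluded NK1.1-positive cells. *Serpina3f* had 67 of 763 UMIs in the table. For *Serpinb6b* the table held 2539 of 21378, and for *Serpinb9* 2292 of 21145. *Serpinb1a* had 936 of 6814 in the table, and *Serpinb6a* 326 of 5704. *Serpinb6a* goes against the name most plainly, since its highest level was in NK barcodes and its level in cluster 8 was below that of macrophages.

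Against all other cDC1s, 3 of the 6 serpins were at least 4-fold higher in cluster 8 in each library without overlap (*Serpinb6b*, *Serpinb9* and *Serpinb1a*), as were 453 of the 13574 genes with at least 10 UMIs (3.34%). In cluster 10 the same held for 2 of the 6, *Serpina3g* and *Serpina3f*, and for 66 of 13574 genes (0.486%). Nothing is read from these shares, because the choice of the genes used the same contrast. *Serpinb1a*, the nearest inside the threshold, was 17.9, 18.2 and 36.8 times higher in cluster 8 than in the other cDC1s, and *Serpinb6a*, the nearest outside, 4.01, 2.24 and 3.97 times. Missing this threshold, or any other below, does not show that a level is the same.

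**Figure D1:**
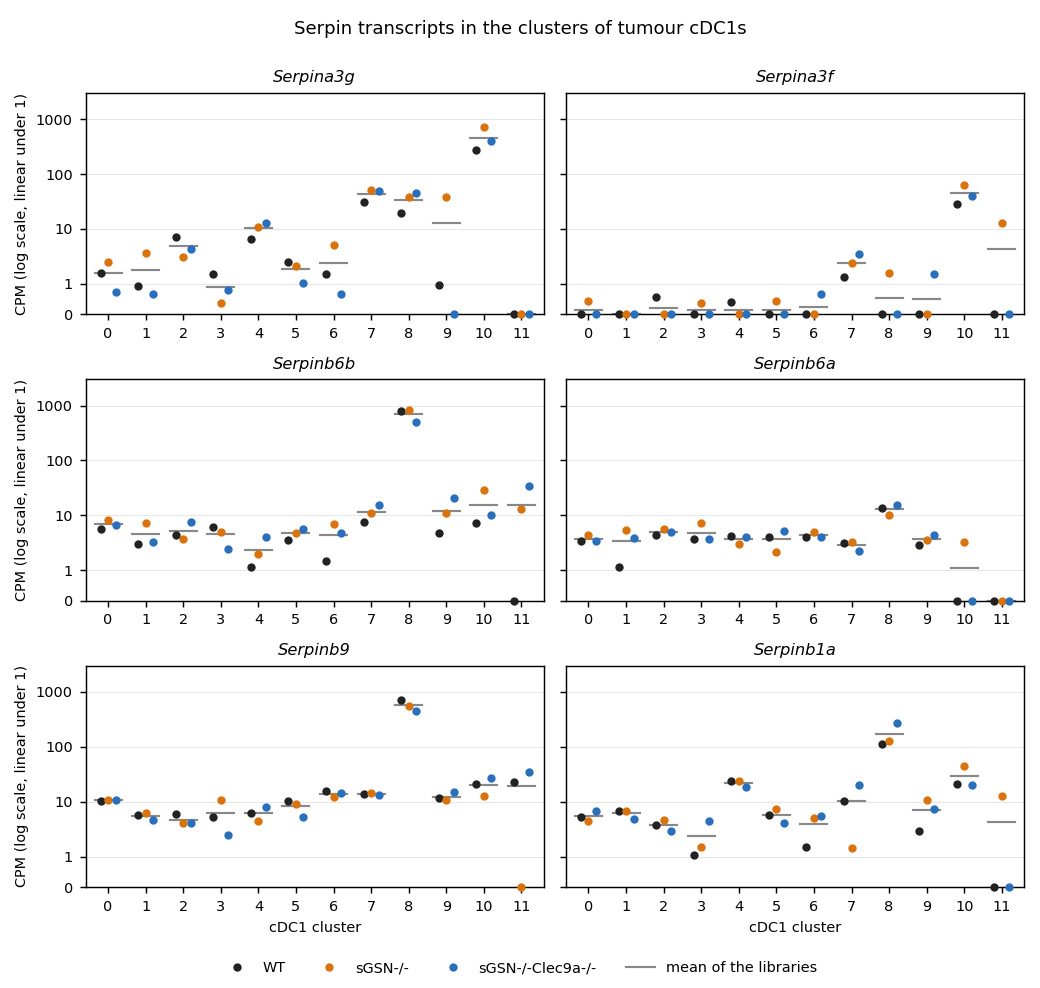
Levels of the 6 serpins in CPM (vertical axis, logarithmic above 1) in cDC1 clusters 0 to 11; points are the WT (black), sGSN-/- (orange) and sGSN-/-Clec9a-/- (blue) libraries, and the grey line is their mean. *Serpina3g* and *Serpina3f* peak in cluster 10 (means 458 and 44.3 CPM), the other 4 in cluster 8, where *Serpinb6b* has a mean of 702 CPM and *Serpinb6a* 13.1 CPM.

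*Serpina3g* was highest in cluster 10, at 269, 709 and 395 CPM (mean 458, SD 226; 414 UMIs). Next came cluster 7, at 31.1, 50.7 and 48.4 CPM, then cluster 8, at 19.4, 38.6 and 44.6 CPM. Cluster 9 (mean 12.9 CPM) followed only through the sGSN-/- library (0.960, 37.9 and 0 CPM), where 3 cells held 21 of its 22 UMIs, and without that library the mean is 0.480 CPM. Below it stood cluster 4 (10.2 CPM), then clusters 2, 6, 5, 1, 0 and 3, from 4.84 down to 0.896 CPM, and cluster 11 with no UMI. Only the steps from cluster 10 to 7 and from 3 to 11 separated neighbours in all libraries. In cells, 73.7% of cluster 10 (56 of 76; 61.9%, 92.6% and 64.3% by library) had a *Serpina3g* UMI, with median counts of 2, 5 and 2. The share was 15.6% in cluster 7 and 13.3% in cluster 8. After thinning to 3900 UMIs, which left out 6 cells of cluster 10, the shares were 60.0%, 8.52% and 6.57%. Macrophage barcodes, at a median depth of 15054.5 UMIs against 11132.5 in cluster 10, gave a background share of 0.592%, or 0.206% thinned.

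*Serpina3f* followed the same peak at few counts: 28.3, 64.4 and 40.2 CPM in cluster 10 (mean 44.3, SD 18.4; 40 UMIs). Its next levels, 4.26 CPM (cluster 11) and 2.37 CPM (cluster 7), rested on 1 and 14 UMIs, and every other cluster was at 0.525 CPM or lower. Cluster 10 alone stood clear of its neighbour. There, 19 of 76 cells (5 of 21, 7 of 27 and 7 of 28), or 14.3% thinned, had a *Serpina3f* UMI, against 0.132% of macrophage barcodes. 18 of these 19 cells also held *Serpina3g*, and all 19 held *Cxcl9*, which 70 of the 76 cells of the cluster held. In cluster 10, *Serpina3g* was found with *Cxcl9* in 55 of 56 cells.

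Cells with *Cxcl9* were also compared with the rest over all cDC1s. There, 588 cells with *Cxcl9* and no *Ccr7* had *Serpina3g* at 57.2, 123 and 76.8 CPM, against 1.30, 3.04 and 1.78 CPM in 4924 cells with neither. *Serpina3f* stood at 3.16, 9.35 and 6.68 CPM in the former and 0.144, 0.210 and 0.108 CPM in the latter. Cluster 10 carries much of this: without it, a split added after seeing the data, 523 cells with *Cxcl9* had *Serpina3g* at 38.7, 50.3 and 42.1 CPM and *Serpina3f* at 0.930, 2.39 and 2.34 CPM (14 UMIs). Cluster 7 had *Serpina3g* at 83.2, 109 and 111 CPM in 129 cells with *Cxcl9*, against 5.94, 12.7 and 11.8 CPM in 278 with neither gene. Cluster 9 differed, since only 3 of its 80 cells with *Cxcl9* and no *Ccr7* held *Serpina3g* (1.85, 61.6 and 0 CPM; the mean rests on the sGSN-/- library). In cluster 8, 21 of the 34 *Serpina3g*-positive cells held *Cxcl9*, compared with 77 of all 255 cells.

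*Serpinb6b* had its peak in cluster 8, at 781, 822 and 503 CPM (mean 702, SD 174; 2109 UMIs). No other cluster reached a mean of 16 CPM: cluster 11 (15.7 CPM, 2 UMIs), 10 (15.4 CPM), 9 (12.1 CPM) and 7 (11.2 CPM) led, and 0, 2, 5, 3, 1, 6 and 4 followed from 6.87 down to 2.37 CPM, each within the spread of the next. *Serpinb9* also led in cluster 8, at 709, 548 and 448 CPM (mean 568, SD 132; 1659 UMIs). It was followed by clusters 10 (20.3 CPM), 11 (19.1 CPM), 7 and 6 (13.9 CPM each) and 9 (12.4 CPM), which stood clear of cluster 0 (10.5 CPM), and then by 5, 4, 3, 1 and 2, from 8.20 down to 4.69 CPM. For both genes the step below cluster 8 separated all libraries.

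In cluster 8, 67.1% of cells (171 of 255; 72.6%, 68.4% and 56.1% by library) held *Serpinb6b* and 79.2% (202 of 255; 89.3%, 76.3% and 70.2%) *Serpinb9*. Thinned, with 57 cells left out, the shares were 66.2% and 67.7%. Background shares in macrophage barcodes were 2.30% and 6.25%, or 0.687% and 1.99% thinned, at a median of 15054.5 UMIs against 10867 in cluster 8. Both genes were found in the same 156 cells, which are 91.2% of those with *Serpinb6b* and 77.2% of those with *Serpinb9*. *Ccr7* was held by 163 of the 171 *Serpinb6b*-positive cells and by 178 of the 202 *Serpinb9*-positive cells, against 211 of all 255.

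*Serpinb1a* was highest in cluster 8 too, at 113, 128 and 276 CPM (mean 172, SD 89.6; 422 UMIs), but in far fewer cells. A single cell of the sGSN-/-Clec9a-/- library held 94 UMIs; without it, a check added after seeing the count, that library stood at 95.7 CPM and the mean at 112 CPM. The tenth of cells with most UMIs held 82.1%, 88.3% and 93.7% of the *Serpinb1a* UMIs of the cluster, against 39.3%, 46.3% and 49.4% for *Serpinb6b*. Of the 255 cells, 22.0% (56; 20, 24 and 12 by library) had the gene, or 17.2% thinned, above background shares of 4.14% in macrophage and 3.30% in NK barcodes. The next levels were in clusters 10 (28.8 CPM), 4 (23.7, 23.8 and 18.1 CPM) and 7 (10.1, 1.42 and 19.9 CPM), then 9, 1, 5, 0, 11, 6, 2 and 3, from 7.03 down to 2.34 CPM, and only cluster 8 stood clear of its neighbour. Cluster 4, the third in rank, had a doublet-like share of 9.38%.

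Cells of cluster 8 were split by *Serpinb1a* to see what goes with it; the split was not tested. Of its 56 positive cells, 54 held *Ccr7*, 52 *Serpinb6b*, 52 *Serpinb9* and 8 *Cxcl9*. The 39 cells (13, 17 and 9) with at least 2 *Serpinb1a* UMIs had a summed *Ccr7*-state marker level of 10297, 8728 and 7983 CPM, against 6610, 5715 and 3360 CPM in the other 216. Their cDC1 markers stood at 159, 453 and 144 CPM against 617, 461 and 884 CPM. *Serpinb6b* was at 1438, 1151 and 1442 CPM in these cells and 628, 756 and 339 CPM in the rest. For *Serpinb9* the values were 1197, 750.2 and 537 CPM against 596, 507 and 433 CPM. *Serpina3g* had 1 UMI in the 39 cells and 91 UMIs in the rest of the cluster (22.7, 46.3 and 52.4 CPM). Median depths were 11275 and 10843 UMIs. Doublet-like shares were 7.69% and 3.24%, and macrophage markers in the 39 cells were at 457, 0 and 13.1 CPM, mostly in the WT library.

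Splitting the same cluster by *Cxcl9* instead gave a similar picture. In 145 cells with *Ccr7* and no *Cxcl9* UMI, *Serpinb1a* stood at 198, 231 and 811 CPM, against 9.98, 19.4 and 7.74 CPM in 66 cells with both. In 11 cells with *Cxcl9* alone it stood at 216, 0 and 0 CPM, with all 16 UMIs in 1 WT cell. The 33 cells with neither gene held 1 UMI. The value of 811 CPM is 293 CPM without the cell of 94 UMIs. *Serpina3g* took the opposite direction, with 8.18, 16.7 and 0 CPM against 22.5, 69.8 and 163 CPM. *Serpinb6b* was at 1119, 1227 and 1122 CPM and 629, 446 and 457 CPM. *Serpinb9* was at 955, 646 and 817 CPM against 621, 485 and 542 CPM. *Serpinb6a* went both ways, at 2.05, 18.2 and 34.5 CPM against 27.4, 1.94 and 7.74 CPM (19 and 13 UMIs). Cells with both genes were deeper (median 14480.5 against 8315 UMIs), and the split was not tested.

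**Figure D2:**
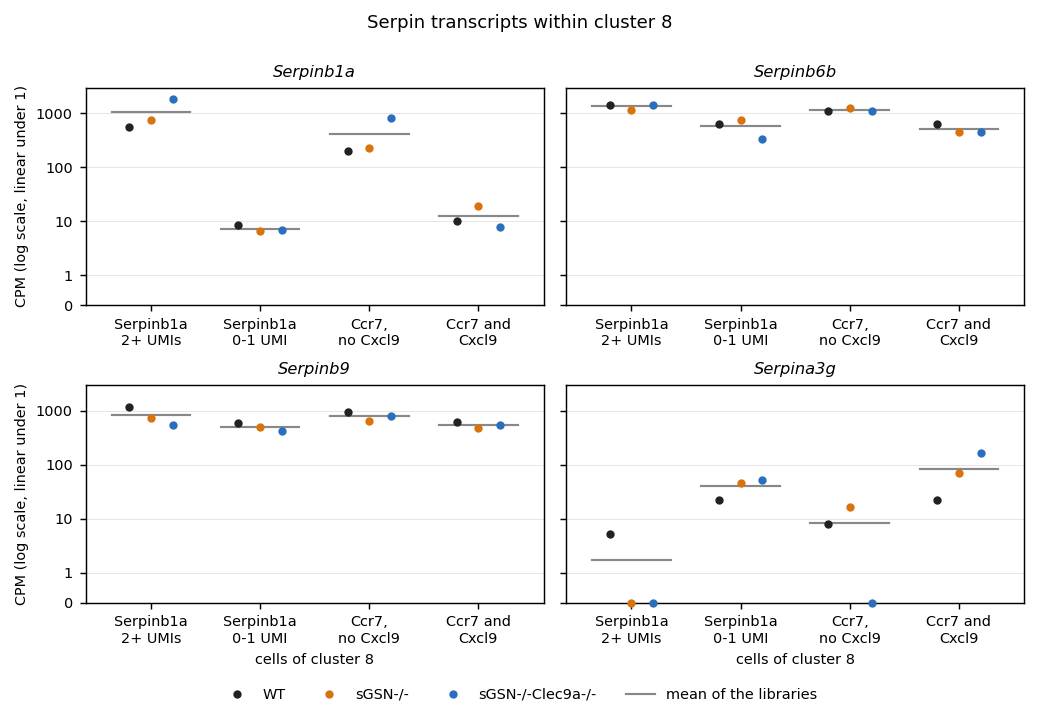
Levels of *Serpinb1a*, *Serpinb6b*, *Serpinb9* and *Serpina3g* in CPM (vertical axis) in cells of cluster 8 split by *Serpinb1a* UMIs and by *Ccr7* and *Cxcl9*; points are the WT (black), sGSN-/- (orange) and sGSN-/-Clec9a-/- (blue) libraries. *Serpina3g* is near 0 where *Serpinb1a* is at least 2 UMIs, with 1 UMI in 39 cells.

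*Serpinb6a* had only 35 UMIs in cluster 8, at 13.6, 10.2 and 15.5 CPM (mean 13.1, SD 2.68), still above every other cluster in every library. Cluster 2 followed at 5.04 CPM, then 3, 6, 0, 5, 4, 9, 1 and 7, from 4.81 down to 2.89 CPM, none clear of the next. Cluster 10 held 1 UMI and cluster 11 none. Its share of cells in cluster 8 was 10.2%, or 4.55% thinned, against 4.86% and 1.56% in cDC1s outside clusters 8 and 10. No class examined lacked the gene, and macrophage barcodes, the background for the other serpins, had it in 16.8%, or 5.70% thinned.

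Correlations of levels were taken over the 36 sums of 12 clusters and 3 libraries, which are not independent because clusters share libraries. The serpins were chosen by these same levels, so a high r between them describes the choice. *Serpinb6b* and *Serpinb9* had the highest r of log2 levels (r = 0.81), followed by *Serpinb6b* and *Serpinb1a* (0.69) and by *Serpina3g* and *Serpina3f* (0.67). The lowest was that of *Serpina3f* and *Serpinb6a* (-0.46). Over all 6769 genes with enough counts, those nearest to *Serpina3g* were *Tgtp1* (r = 0.95), *Oasl2* (0.89) and *Ifi47* (0.85). *Serpina3f* was nearest to *Slamf8*, *Igtp* and *Hcar2* (0.80 each). *Tgtp1*, *Ifi47* and *Igtp* are known as interferon-gamma-induced GTPases. *Ifi47*, for example, had its highest means in clusters 10 and 7 (213 and 181 CPM), against 33.8 CPM for cluster 8.

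Nearest to *Serpinb6b* were *Sinhcaf* (0.89), *Ankrd33b* (0.88) and *Slco5a1* (0.88), the last with a mean of 31.8 CPM in cluster 8 and no UMI in clusters 4, 7, 9 and 10. *Serpinb9* was nearest to *Slco5a1* (0.87), *Ccr7* (0.86) and *Tnfrsf4* (0.86), all known from mature migratory dendritic cells. *Serpinb1a* was nearest to *Ninj1* (0.85), *Fabp5* (0.85) and *Tmem176b* (0.84). Of these, *Tmem176b* was also high in cluster 4, being at means of 171 CPM (8), 65.5 CPM (4) and 5.97 CPM (7). *Serpinb6a* was nearest to *Atmin* (0.88), *Marveld1* (0.82) and *Avpi1* (0.82).

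By genotype, all cDC1s gave *Serpina3g* at 7.74, 19.7 and 12.8 CPM (253, 464 and 274 UMIs). The log2 ratio of sGSN-/- over WT was 1.35 (95% Poisson interval 1.12 to 1.57), and that of sGSN-/-Clec9a-/- over sGSN-/- was -0.63 (-0.85 to -0.41). Cluster 10 kept this order, at 269 (212 to 337), 709 (618 to 809) and 395 (327 to 473) CPM. *Serpina3f* stood at 0.459, 1.36 and 0.931 CPM (15, 32 and 20 UMIs), with log2 ratios of 1.56 (0.64 to 2.56) and -0.54 (-1.43 to 0.31). These intervals hold counting error alone, and with 1 library per genotype the effect of gelsolin or DNGR-1 cannot be told apart from that of the pool.

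*Serpinb6b* stood at 29.0, 50.6 and 18.5 CPM in all cDC1s, with log2 ratios of 0.80 (0.68 to 0.93) and -1.45 (-1.62 to -1.28). Cluster 8 made up 84 of 2316, 114 of 1712 and 57 of 1778 cDC1s, and with the 12 clusters weighted equally the levels were 68.8, 76.9 and 51.4 CPM, and the log2 ratios 0.16 and -0.58. *Serpinb9* was at 30.8, 37.8 and 18.4 CPM, with ratios of 0.30 (0.16 to 0.43) and -1.04 (-1.21 to -0.87). Under equal weights its values were 69.9, 53.6 and 48.8 CPM, which turns the log2 ratio of sGSN-/- over WT to -0.38 and leaves -0.13 for the other. *Serpinb1a* was at 9.70, 13.6 and 13.9 CPM, with ratios of 0.49 (0.26 to 0.71) and 0.04 (-0.20 to 0.27), the latter 0.55 under equal weights. Without the single cell of 94 UMIs, added after seeing its count, the sGSN-/-Clec9a-/- library stood at 9.55 CPM and that ratio was -0.51, or -0.41 under equal weights. *Serpinb6a* was at 3.70, 4.88 and 4.19 CPM, with ratios of 0.40 (0.02 to 0.78) and -0.22 (-0.63 to 0.19).

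RNA of cytotoxic cells differed between the libraries in the same order as *Serpina3g*. *Gzma* was at 5.63, 21.4 and 10.5 CPM in all cDC1s and *Gzmb* at 1.74, 9.72 and 1.91 CPM. NK barcodes numbered 854, 1368 and 1046. In those NK barcodes *Gzma* stood at 3352, 3962 and 4281 CPM, and *Serpinb6b* at 356, 385 and 384 CPM. In cluster 8, 90 of the 95 *Gzmb* UMIs came from the sGSN-/- library. How much of the serpin counts in cDC1s came with such RNA was not tested.

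Outside the table, 23052 barcodes passed the quality thresholds. Of these, 1039 held *Ccr7* without *Cxcl9*, 809 *Cxcl9* without *Ccr7*, 94 both and 21110 neither. *Serpinb6b* was at 98.2, 181 and 89.1 CPM with *Ccr7*, 10.9, 24.6 and 36.6 CPM with *Cxcl9* and 36.3, 91.0 and 55.3 CPM with neither. *Serpinb9* was at 82.3, 133 and 67.6 CPM, 18.4, 35.5 and 31.3 CPM, and 40.8, 92.6 and 52.5 CPM in the same groups. *Serpina3g* was at 46.2, 62.4 and 46.4 CPM with *Cxcl9*, 14.7, 34.1 and 20.4 CPM with neither, and 78.9, 71.3 and 50.5 CPM in the 94 with both, of which 35.1% were doublet-like. *Serpina3f* was at 8.18, 7.22 and 4.47 CPM with *Cxcl9* and 1.10, 4.86 and 6.97 CPM with both, against 1.202, 2.98 and 1.81 CPM. The group with neither contains NK and T barcodes, and a choice added after seeing the data therefore left out all barcodes with 2 or more NK or T markers.

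With those left out, 15215 barcodes with neither gene had *Serpina3g* at 2.27, 3.37 and 2.45 CPM, and 609 with *Cxcl9* had it at 40.4, 63.3 and 37.5 CPM. *Serpina3f* stood at 0.1998, 0.451 and 0.271 CPM and at 6.86, 6.80 and 3.71 CPM. *Serpinb6b* was at 1.72, 4.67 and 2.57 CPM with neither gene and at 69.4, 139 and 43.4 CPM in 710 barcodes with *Ccr7*. *Serpinb9* was at 6.53, 9.11 and 5.73 CPM and at 60.6, 86.2 and 41.2 CPM. Asking for *Fscn1* beside *Ccr7* left 111 barcodes (52, 46 and 13) with *Serpinb6b* at 511, 562 and 409 CPM and *Serpinb9* at 415, 340 and 379 CPM. Their *Ccr7*-state markers summed to 6274, 5064 and 6597 CPM, while cDC1 markers summed to 139, 244 and 261 CPM, cDC2 markers to 373, 668 and 1114 CPM and macrophage markers to 347, 779 and 403 CPM.

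*Serpinb1a* gave no single picture with *Ccr7* outside the table. It stood at 19.99, 23.0 and 19.7 CPM in the barcodes with neither gene and under 2 NK or T markers, 15.99, 19.5 and 12.6 CPM with *Ccr7*, and 17.1, 27.0 and 11.9 CPM with *Ccr7* and *Fscn1*. With no filter on NK or T markers, barcodes with *Ccr7* and *Fscn1* (154, of which 20.8% doublet-like) had it at 23.4, 30.8 and 21.1 CPM, against 18.8, 18.2 and 18.3 CPM with neither. The 31 cDC1-like barcodes with *Ccr7* had 26.4, 25.9 and 0 CPM, against 6.14, 6.34 and 7.48 CPM. *Serpinb6a* was at 11.6, 13.2 and 18.2 CPM, 10.9, 15.8 and 23.0 CPM, and 29.9, 18.0 and 17.8 CPM in the same 3 filtered groups. Under 2 NK or T markers, doublet-like barcodes made up 8.17% of those with *Ccr7*, 12.2% with *Cxcl9* and 4.30% with neither, and 9.01% of the 111. In the groups before that filter the shares were 14.2%, 17.3% and 6.62%, at median depths of 14496, 16481 and 11802.5 UMIs.

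**Figure D3:**
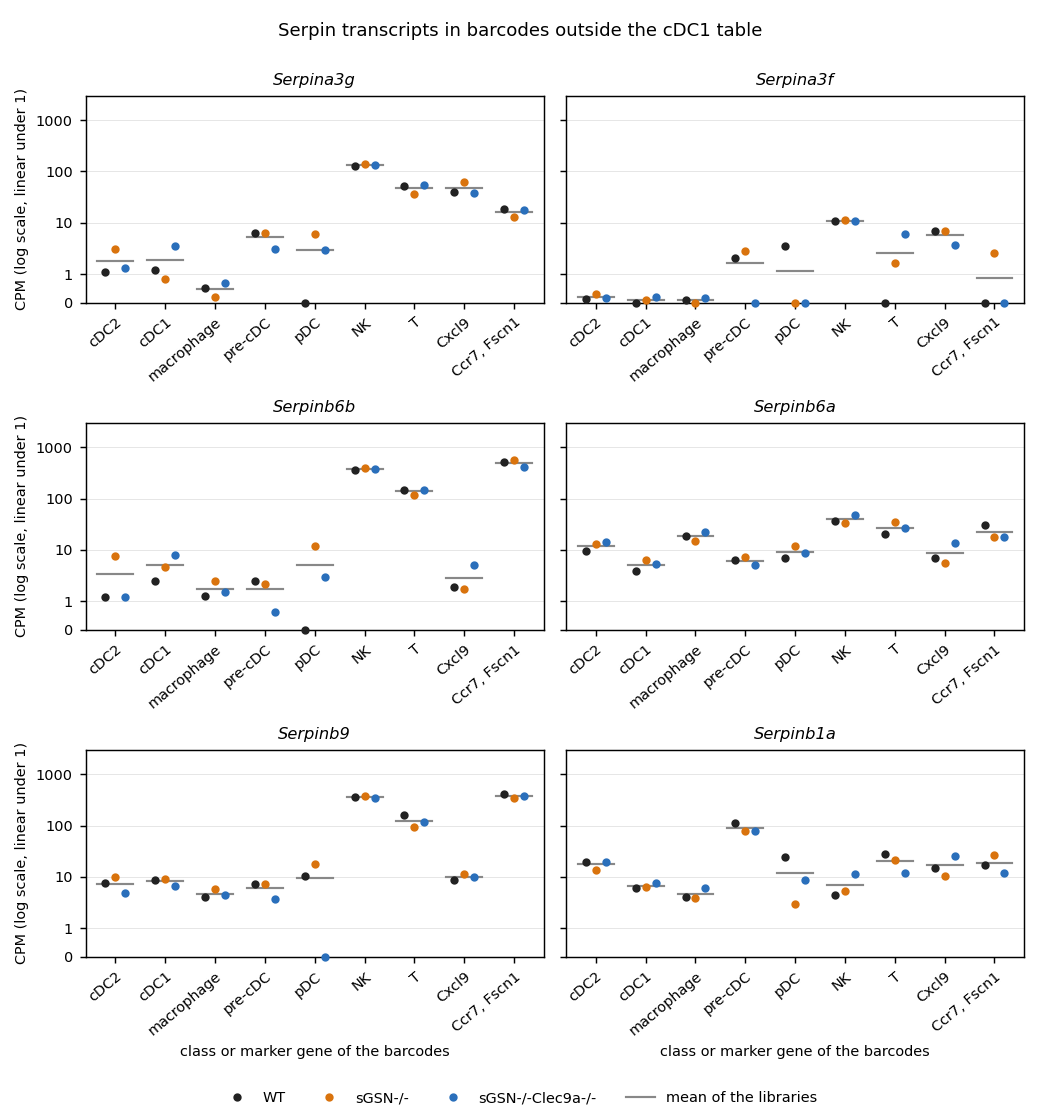
Levels of the 6 serpins in CPM (vertical axis, logarithmic above 1) in barcodes outside the cDC1 table: gated classes without *Ccr7* and *Cxcl9*, and barcodes with *Cxcl9* or with *Ccr7* and *Fscn1* and under 2 NK or T markers; points are the WT (black), sGSN-/- (orange) and sGSN-/-Clec9a-/- (blue) libraries. NK barcodes lead for *Serpina3g* (mean 133 CPM), and pre-cDC barcodes for *Serpinb1a* (mean 88.9 CPM).

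*Serpina3g* was higher with *Cxcl9* within some of the classes gated on markers and not in others. cDC2 barcodes with *Cxcl9* (107) had it at 66.0, 72.5 and 21.3 CPM, and those without *Cxcl9* and *Ccr7* at 1.09, 3.11 and 1.30 CPM. In macrophage barcodes the values were 60.3, 26.5 and 38.4 CPM (57 barcodes) against 0.525, 0.191 and 0.670 CPM. In cDC1-like barcodes outside the table they were 29.2, 37.8 and 41.2 CPM (158 barcodes, 14.6% doublet-like) against 1.21, 0.818 and 3.59 CPM. The 17 pre-cDC barcodes with *Cxcl9* had 372, 85.8 and 169 CPM against 6.29, 6.43 and 3.14 CPM. Only 8 of these 17 held *Serpina3g*, and the WT value rests on 15 UMIs in 2 of 5 barcodes. NK barcodes went both ways, with 163, 218 and 82.5 CPM (40 barcodes) against 129, 140 and 132 CPM, 32.5% of the former doublet-like, and the 7 T barcodes with *Cxcl9*, from the knock-out libraries only, were lower at 31.8 and 23.5 CPM on 3 UMIs. *Serpinb6b* was higher with *Ccr7* in cDC2 barcodes (241), at 9.75, 41.5 and 6.44 CPM against 1.23, 7.62 and 1.22 CPM. In macrophage barcodes (41) the values were 21.4, 227 and 13.3 CPM against 1.28, 2.49 and 1.51 CPM, and in cDC1-like barcodes (31) 76.2, 51.7 and 34.9 CPM against 2.51, 4.60 and 7.96 CPM. These values rest on few barcodes: 4 of the sGSN-/- library held 48 of the 76 UMIs in cDC2 barcodes, another 4 of that library held 66 of the 78 in macrophage barcodes, and 5 held all 40 in cDC1-like barcodes. Doublet-like shares were 3.73%, 17.1% and 25.8% in these groups, against 2.09%, 2.24% and 7.86% without *Ccr7* and *Cxcl9*. In NK barcodes the gene was at 390, 354 and 380 CPM with *Ccr7* (107), against 356, 385 and 384 CPM, and pre-cDC barcodes with *Ccr7* (12) had it only in the WT library. Most barcodes with *Ccr7* (575 of 1039) met no gate.

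For levels in other cells, barcodes without *Ccr7* and *Cxcl9* were gated on at least 3 markers of a class and a lead of at least 2 over any other. This gave 3399 cDC2, 3268 NK, 1520 macrophage, 1742 cDC1-like, 570 pre-cDC, 206 T and 122 pDC barcodes and left 10283 in no class. Over all gated barcodes, those with *Ccr7* or *Cxcl9* included, shares close to the gate were 55.7% for cDC2, 22.2% for NK, 52.8% for macrophages, 37.3% for cDC1-like, 75.5% for pre-cDCs, 35.5% for T and 73.0% for pDCs. NK barcodes had medians of 22 UMIs of their own markers, 1 of T and 0 of cDC2 markers. cDC2 barcodes had 23 of their own, 2 of macrophage and 1 of cDC1 markers, and macrophage barcodes 65 of their own and 8 of cDC2 markers. Pre-cDC barcodes had 15 of their own, 4 of cDC2 and 3 of pDC markers. T barcodes had 29.5 of their own, 4 of NK and 7 of pre-cDC markers, and pDC barcodes 54 of their own and 19 of pre-cDC markers. Doublet-like shares were 6.06% for NK, 10.7% for T, 7.86% for cDC1-like, 2.09% for cDC2, 2.24% for macrophages, 0.526% for pre-cDCs and 1.64% for pDCs.

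NK barcodes were the highest class for 5 of the 6 serpins. *Serpina3g* was at 129, 140 and 132 CPM there, followed by T (51.7, 35.7 and 53.9 CPM), pre-cDC (6.29, 6.43 and 3.14 CPM), pDC, cDC1-like, cDC2 and macrophage barcodes, with steps clear of spread from NK to T, T to pre-cDC and cDC2 to macrophage. *Serpina3f* was at 10.8, 11.4 and 10.8 CPM in NK barcodes, the only class clear of the next. *Serpinb6b* was at 356, 385 and 384 CPM in NK and 150, 117 and 145 CPM in T barcodes, and all others had means under 6 CPM. *Serpinb9* was at 356, 376 and 348 CPM in NK and 158, 92.5 and 120 CPM in T barcodes, and at 7.58, 9.82 and 4.80 CPM in cDC2 barcodes. For both, NK over T and T over the next class were clear. *Serpinb6a* was at 36.6, 34.0 and 47.8 CPM in NK, 20.7, 34.1 and 26.9 CPM in T, 18.6, 14.9 and 22.1 CPM in macrophage and 9.61, 12.7 and 14.0 CPM in cDC2 barcodes, with only macrophage over cDC2 clear.

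Against cDC2 barcodes, 5 of the 6 serpins were higher and 1 lower in NK barcodes, where 34.6% of 11438 genes were higher and 35.2% lower. All calls are by the edgeR quasi-likelihood test, Benjamini-Hochberg adjusted at 0.05, on sums per class and library, and the markers that gate the classes do not include the serpins. *Serpinb6b* had a log2 fold change of 6.96 (edgeR quasi-likelihood test, Benjamini-Hochberg adjusted p = 4.9e-16), higher in all 3 libraries; without the sGSN-/- library it was 8.10. *Serpina3g* was higher by 6.22 (edgeR quasi-likelihood test, Benjamini-Hochberg adjusted p = 4.8e-19, 3 of 3 libraries). *Serpina3f* was higher by 5.79 (edgeR quasi-likelihood test, Benjamini-Hochberg adjusted p = 5.4e-13, 3 of 3 libraries). *Serpinb9* was higher by 5.45 (edgeR quasi-likelihood test, Benjamini-Hochberg adjusted p = 9.9e-19, 3 of 3 libraries). *Serpinb6a* was higher by 1.56 (edgeR quasi-likelihood test, Benjamini-Hochberg adjusted p = 1.7e-09, 3 of 3 libraries). *Serpinb1a* was lower, by a log2 fold change of -1.56 (edgeR quasi-likelihood test, Benjamini-Hochberg adjusted p = 3.1e-06, 3 of 3 libraries). In cDC2 barcodes, *Serpinb6b* stood at 7.62 CPM in the sGSN-/- library, against 1.23 and 1.22 CPM in the WT and sGSN-/-Clec9a-/- libraries. *Gzma* there stood at 22.4 CPM, against 4.75 and 10.1 CPM. A link between the 2 genes was not tested.

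T barcodes had 5 of the 6 serpins higher than cDC2 barcodes, with 18.1% of all genes higher and 23.9% lower. No serpin was lower in T barcodes by the edgeR quasi-likelihood test after Benjamini-Hochberg adjustment; 0 were at unadjusted p < 0.05 and 0 by DESeq2. *Serpinb6b* differed by a log2 fold change of 5.40 (6.66 without sGSN-/-), *Serpina3g* by 4.60 (5.27 without sGSN-/-) and *Serpinb9* by 3.76. *Serpina3f* differed by 3.81, and by 2.26 without the sGSN-/-Clec9a-/- library, where it was no longer called. Its call rests on 5 UMIs (0, 1 and 4) in 2 of 206 T barcodes, against 8 UMIs in cDC2 barcodes. *Serpinb6a* differed by 0.97, and its call was lost without sGSN-/- (0.87). *Serpinb1a*, at -0.17, or 0.23 without the sGSN-/-Clec9a-/- library, was not called.

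Pre-cDC barcodes carried the most *Serpinb1a* of any class, at 112, 77.8 and 77.3 CPM, followed by T (28.4, 21.1 and 11.97 CPM), cDC2 (19.4, 13.7 and 19.7 CPM), pDC (24.3, 2.99 and 8.76 CPM), NK, cDC1-like and macrophage barcodes. The gene was found in 43.0% of them (245 of 570), or 24.4% thinned with 42 left out, against 3.30% of NK barcodes, at median depths of 9343 and 7656.5 UMIs. It was 2.18 log2 higher than in cDC2 barcodes (edgeR quasi-likelihood test, Benjamini-Hochberg adjusted p = 2.3e-08, 3 of 3 libraries). Of the 6 serpins 3 were higher and 1 lower in pre-cDC barcodes, where 15.7% of all genes were higher and 21.1% lower. *Serpina3f* (3.09; 2.38 without the WT library) and *Serpina3g* (1.61; 1.02 without the WT library) lost the call when WT was left out. The *Serpina3f* call rests on 9 UMIs (5, 4 and 0) in 5 of 570 pre-cDC barcodes, against 8 UMIs in cDC2 barcodes. *Serpinb6a* was lower, at -1.10. *Serpinb6b* (-0.66, or 0.39 without sGSN-/-) and *Serpinb9* (-0.41) were not called.

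In macrophage barcodes 1 of the 6 serpins was higher and 3 were lower than in cDC2 barcodes, where 13.3% of all genes were higher and 14.3% lower. The firmest was *Serpinb1a*, at -2.001 (edgeR quasi-likelihood test, Benjamini-Hochberg adjusted p = 3.6e-06, 3 of 3 libraries). *Serpinb6a* was higher by 0.62, with the call lost without WT (0.46). *Serpina3g* was lower, at -1.68, with the call lost without sGSN-/- (-1.02) and with the barcodes (-0.65) that hold *Ccr7* or *Cxcl9*. *Serpinb9* was lower, at -0.72, and not called without WT (-0.52), without sGSN-/- (-0.65) or with those barcodes (-0.22). *Serpinb6b* was at -0.75, not called, but called at -0.78 when low counts were not filtered, and it was 0.12 without sGSN-/-. *Serpina3f* was at -0.86, not called, and both were above 0 with the *Ccr7* or *Cxcl9* barcodes kept (0.40 and 0.70). Without WT the number of genes called fell from 1525 higher and 1630 lower to 879 and 889.

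pDC barcodes differed in none of the serpins: 0 of 6 were higher and 0 lower by the edgeR quasi-likelihood test after Benjamini-Hochberg adjustment, 0 and 0 at unadjusted p < 0.05, and 0 and 0 by DESeq2, while 13.1% of all genes were higher and 22.5% lower. Log2 fold changes were 0.65 for *Serpina3g*, 2.25 for *Serpina3f*, 0.64 for *Serpinb6b*, -0.67 for *Serpinb6a*, 0.03 for *Serpinb9* and -0.97 for *Serpinb1a*. Without WT the value of *Serpina3f* was -3.38, and without sGSN-/- that of *Serpinb9* was -0.72. With 122 barcodes, and *Serpina3g*, *Serpina3f*, *Serpinb6b* and *Serpinb9* at 0 CPM in at least 1 library, these values are poorly known. Without the sGSN-/-Clec9a-/- library, 1686 genes were lower in pDC barcodes in place of 2572.

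Scaling matters for these splits. With library size alone in place of TMM factors, the median log2 fold change of all genes shifted by 0.17 in NK, 0.16 in pre-cDC, 0.32 in pDC and 0.27 in T barcodes. The share of called genes that were higher went from 49.6% to 60.12% for NK, 42.61% to 60.93% for pre-cDC, 36.77% to 59.48% for pDC and 43.14% to 62.55% for T barcodes. DESeq2 shifted the median by 0.16 in pDC and 0.12 in T barcodes, with 50.51% and 54.51% of called genes higher. *Serpinb1a* in T barcodes moved from -0.17 to 0.11 without TMM factors, not called either way.

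Families of proteases that serpins act on were looked at in the same comparisons, with perforin, a pore-forming partner of granzymes, beside them. All 5 granzyme and perforin genes tested were higher in NK barcodes than in cDC2 barcodes, with a median log2 fold change of 8.23 against 0.02 for all genes, and all 5 in T barcodes (6.61 against -0.09). *Gzmb* was at 1031, 997 and 936 CPM and *Prf1* at 324, 312 and 311 CPM in NK barcodes. Of 7 cathepsins tested, 6 were lower and 1 higher in NK barcodes (median -2.25), and 6 were higher and 0 lower in macrophage barcodes (median 1.23), with *Ctsl* (2.60) the largest. Cathepsin G and the other neutrophil proteases listed had too few counts to be tested by edgeR. DESeq2 called 1 neutrophil protease lower in NK than in cDC2 barcodes and 0 higher. Of 5 caspases, 3 were lower and 1 higher in NK barcodes (median -0.43).

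Among cDC1s these genes followed neither activated state closely. Of the 4 granzyme and perforin genes with enough counts, 0 were higher in cluster 8 than in the other cDC1s in all libraries. *Prf1* had 1 UMI in cluster 8. In cluster 10, 0 of the listed genes were higher in all libraries, while *Gzmk* and *Prf1* were lower. Cathepsin gene *Ctsz* was at 774, 771 and 720 CPM in cluster 8, against 380, 398 and 395 CPM outside clusters 8 and 10, and *Ctsc* at 143, 131 and 169 CPM against 293, 289 and 264 CPM. *Casp4* was higher in both, and *Casp8* stood at 92.1, 90.2 and 77.0 CPM in cluster 10 against 38.5, 39.9 and 39.3 CPM outside both clusters. Of inhibitors from other families, *Cstb* was at 202, 220 and 243 CPM in cluster 8 against 97.4, 98.7 and 97.5 CPM. These are levels in clusters built from the same genes and carry no test.

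Most other serpin genes had no UMI or stayed under a mean of 10 CPM in every cluster and class. *Serpinb9b* reached 44.0, 36.4 and 42.9 CPM in NK barcodes. It was 7.86 log2 higher there than in cDC2 barcodes, at 0.109, 0.301 and 0.0762 CPM (edgeR quasi-likelihood test, Benjamini-Hochberg adjusted p = 2.1e-17, 3 of 3 libraries). *Serpinb2* had its highest level in cluster 4 (43.1, 34.2 and 27.2 CPM), and *Serpinf1* in cluster 5 (28.5, 35.3 and 30.7 CPM). *Serpinb8* was highest in cluster 6, at a mean of 11.3 CPM. None of these 4 genes had its peak in clusters 7 to 10.

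The serpins sit in 2 regions of the mouse genome (GRCm38). *Serpina3f* and *Serpina3g* are neighbours on the plus strand of chromosome 12, 15.1 kb apart with no protein-coding gene between. *Serpinb1a*, *Serpinb6b* and *Serpinb9* lie within a stretch of chromosome 13, where *Serpinb6b* and *Serpinb9* are 24.2 kb apart with no protein-coding gene between. *Serpinb6a* lies 900.0 kb beyond *Serpinb9* and overlaps *1110046J04Rik*, *Nqo2* and *Ripk1* on the other strand. Because the families are recent duplicates, reads may be shared: 16.02% of the 50-base words of *Serpina3g* transcripts also occur in other genes, and 2.44% of those in the last 500 bases. For *Serpina3f* the shares are 10.7% and 1.55%, and for *Serpinb6b* 3.13% and 0%. The files do not say which end of the transcripts was read, so it is not known which of the paired shares applies. The largest share of *Serpina3g* words is with *Serpina3h* (8.67%), which is not among the Serpin symbols of the matrices. The largest share of *Serpina3f* words is with *Serpina3g* (6.003%). Shares of words do not measure how uncertain the counts are, and how reads common to copies were counted was not tested.

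Promoters were read for 5 of the 6 genes, *Serpinb1a* having none in the collection used. The interferon-gamma site GAS (TTCNNNGAA, both strands) occurs in 8.3% of 32851 mouse promoters, the interferon response core (GAAA, any 2 bases, GAAA) in 3.44%, and the kappa B form (GGG, any 5 bases, CC) in 50.8%. *Serpina3f* and *Serpina3g* each have a GAS match, TTCCTAGAA and TTCCCAGAA, and kappa B matches. *Serpinb9* has a single interferon response core (TTTCACTTTC, the minus strand), *Serpinb6a* has 2 GAS matches, both TTCCGGGAA, and a core TTTCGATTTC in a window and 2 overlapping kappa B matches in another, and *Serpinb6b* has none of the 3. The presence of a match describes the sequence only; *Serpinb6a*, with GAS and core, was not high in the *Cxcl9* state. The pair on chromosome 12 is shown because both genes peak in cluster 10 and their windows share 169 of 202 aligned bases (83.7%). Capitals mark the GAS match, and the windows are chr12:104214294-104214593 and chr12:104235897-104236196, both plus strand, GRCm38.p6.
Serpina3f promoter: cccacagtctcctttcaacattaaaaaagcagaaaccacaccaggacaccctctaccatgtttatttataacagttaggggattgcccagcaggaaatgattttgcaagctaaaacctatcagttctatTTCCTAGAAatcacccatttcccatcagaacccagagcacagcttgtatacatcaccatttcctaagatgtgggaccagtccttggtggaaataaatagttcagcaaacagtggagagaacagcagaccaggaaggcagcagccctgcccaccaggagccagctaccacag
Serpina3g promoter: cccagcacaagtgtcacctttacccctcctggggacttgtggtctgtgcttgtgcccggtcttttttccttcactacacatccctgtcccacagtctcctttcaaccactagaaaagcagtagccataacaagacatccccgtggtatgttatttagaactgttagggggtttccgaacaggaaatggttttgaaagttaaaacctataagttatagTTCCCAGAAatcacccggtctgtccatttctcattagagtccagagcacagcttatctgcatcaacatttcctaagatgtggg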

How the data were processed

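The deposited matrices of the 3 libraries hold UMI counts of 32285 genes per barcode, and the deposited cDC1 table holds cluster numbers. Its score values are UMAP coordinates that the authors computed in Seurat before deposit, and they were not used. Counts were read as deposited, summed per library and cluster or class, and divided by the sum's total. Library totals were 176578136, 109270958 and 113411930 UMIs in 30209 barcodes. The 6 serpins were chosen with earlier results of these data known, and so were the lists of markers and proteases.

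Genes named besides the serpins are taken from other Serpin symbols with a mean of at least 10 CPM, the 3 genes nearest to each serpin by Pearson correlation of log2(CPM + 1) among genes with at least 20 CPM in a sum, and listed markers, proteases and inhibitors. Barcodes outside the table needed at least 200 genes and a mitochondrial share up to the mean plus 2 SD (16.7%). The marker gate was set after seeing how the markers are distributed. Scrublet (scanpy 1.11.5) scored doublets, and 1812 barcodes in the top 6% per library were left out only as an alternative. Thinning used 3900 UMIs, the depth that 5% of cDC1s do not reach, so 288 were left out.

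Classes were tested with edgeR 4.0.16 (TMM, filterByExpr, quasi-likelihood) in R 4.3.3 in a single fit of all classes but the cDC1-like, and DESeq2 1.42.0 was the other tool. Classes of a library come from the same pooled animals, so library could serve as a block. Correlations of library effects with those in cDC2 barcodes over 9261 genes were 0.148, 0.186 and 0.265 for NK, 0.362, 0.326 and 0.287 for macrophages, 0.161, 0.0661 and 0.127 for pre-cDCs, 0.0780, 0.105 and 0.118 for pDCs and 0.0518, 0.0681 and 0.0438 for T barcodes. The fit without the block is printed and the block was run as an alternative. Tested on simulated data with 200 changed genes per comparison, the fit recovered 167 to 200 of them with 5 to 11 false calls. The simulation gave every class the cDC2 profile and a fixed spread, and changed well-counted genes only, by 4-fold. *Serpina3f*, *Serpina3g* and *Serpinb6b*, with 8, 78 and 126 UMIs in cDC2 barcodes, lay below its count minimum. Its recovery therefore does not cover them. Intervals of single sums are exact Poisson. Python 3.11.15 with numpy 2.4.6, scipy 1.17.1 and pandas 2.3.3 did the rest. Gene positions come from GENCODE M21, and promoters from RefSeq windows on GRCm38.p6.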

Additional observations from a re-analysis of the deposited data

How the results depend on the processing

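Each genotype is a single library of pooled animals, the clusters were built on the genes described, and the classes outside the table rest on marker gates with many barcodes close to the gate. Counting error does not cover differences between pools, and RNA shared between cells of a library was not removed. The cause of any difference was not tested.

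Of 40 alternatives for the 12 genotype ratios, 33 left the value within its Poisson interval. With the 12 clusters weighted equally, the log2 ratio of sGSN-/- over WT reversed for *Serpinb9* (-0.38) and moved for *Serpinb6b* (0.16). That of sGSN-/-Clec9a-/- over sGSN-/- moved for *Serpinb6b* (-0.58), *Serpinb9* (-0.13) and *Serpinb1a* (0.55). Without its top cell, an alternative chosen after seeing the data, that of *Serpinb1a* was -0.51, or -0.41 under equal weights. For the 6 main levels by cluster, 46 of 49 alternatives lay within the SD of the libraries; with the total taken without mitochondrial and ribosomal genes, *Serpinb6a* in cluster 8 stood at 16.4 CPM and *Serpinb9* at 708 CPM, and as a mean over cells *Serpinb9* stood at 707 CPM. The other 66 levels moved past that SD in 74 of 528 alternatives.

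For the 6 main levels outside the table, 48 of 58 alternatives lay within the SD. With at least 2 *Cxcl9* UMIs, *Serpina3g* stood at 82.4 CPM and *Serpina3f* at 10.1 CPM, and with at least 3 at 96.2 and 12.1 CPM. With at least 3 *Ccr7* UMIs, *Serpinb6b* stood at 205, *Serpinb9* at 148 and *Serpinb1a* at 19.98 CPM. With *Fscn1* beside *Ccr7* and no such minimum (154 barcodes), chosen after seeing the data, the values were 398, 298 and 25.1 CPM. The 6 other levels moved past it in 8 of 56 alternatives.

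The counts of serpins called were equal in 100 of 110 alternatives and within 1.5 times in 106. Leaving out a library in turn gave 4 to 5 higher in T barcodes, 0 to 1 higher and 1 to 3 lower in macrophages and 1 to 3 higher in pre-cDCs, and keeping barcodes with *Ccr7* or *Cxcl9* gave 1 lower in macrophages. The counts of genes called were within 1.5 times in 102 of 110. Leaving out a library gave 879 to 1292 higher and 889 to 1396 lower in macrophages, 1571 to 1812 lower in pre-cDCs and 1686 to 1782 lower in pDCs. Library size without TMM factors gave 2717 higher in pre-cDCs, 2297 higher and 1565 lower in pDCs and 3111 higher in T barcodes. With library as a replicate block the counts of serpins did not change, and 4148 genes were higher and 4147 lower in NK barcodes. In 326 alternatives for fold changes of single serpins, the call was lost in 10 and gained in 1, whatever the size of the value. No called fold change took the other sign, but 9 alternatives gave the other sign to 6 fold changes that were not called, such as -3.38 for *Serpina3f* in pDCs without WT.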
